A study of Nannochloropsis oceanica with 6 samples.

Results

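Genes for ribosomal proteins of the plastid and mitochondrial type of the small oil-forming marine alga Nannochloropsis oceanica (strain IMET1) were compared after 24 h at low and at high CO2. Members were the genes whose Swiss-Prot description names a 30S, 50S, 28S, 39S, 37S or 54S ribosomal protein, or a ribosomal protein of the chloroplast or mitochondrion. The cytosolic 40S and 60S proteins and the methyltransferases and acetyltransferases of ribosomal proteins were left out. This gave 41 of 10633 genes. The description places 1 of them in the chloroplast (L17) and 9 in the mitochondrion, and 31 carry a bacterial-type name with no compartment. Among these 31, the gene ontology terms named only the mitochondrion for 10 genes, only the plastid for 2, both for 1 and neither for 18. The descriptions and gene ontology terms thus give no compartment for those 18 members. Of the 41, 27 are named as large-subunit and 13 as small-subunit proteins. The remaining gene, NO06G01170, is described as an enzyme that hydroxylates ribosomal protein L16 and is a member by its wording alone. The gene NO15G01070 is described as S1, but its KEGG name is that of elongation factor Ts.

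Plastids and mitochondria keep ribosomes of bacterial descent, which make a small set of proteins of photosynthesis and respiration. Their ribosomal RNAs and part of their ribosomal proteins are encoded in the organelle itself, and the other proteins are made in the cytosol from nuclear genes and imported. The small subunit binds mRNA and decodes it, and the large subunit joins amino acids and carries the tunnel through which the new protein leaves.

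The low CO2 cultures were bubbled with air at 0.04% CO2 for 24 h after a first phase of adaptation at 5%, while the control cultures (high CO2) were kept at 5%. All were of strain IMET1, with no other genetic change stated, in seawater-based medium buffered with Tris and under continuous light. Poly(A) RNA was sequenced from 6 column reactors, 3 per group, so replicates were separate cultures started from the same seed cells. Libraries held 4620234 to 6112822 counts in low CO2 and 4826380 to 5140784 in high CO2. Low CO2 replicate 1 and high CO2 replicate 3 stood apart. Counts scaled to the total of each library (CPM) were correlated on the log2 scale over all genes tested, which are not independent replicates. Pearson's r was 0.923 and 0.932 between low CO2 replicate 1 and the other low CO2 libraries, against 0.987 between those. With high CO2 replicates 1, 2 and 3 that library had r of 0.942, 0.946 and 0.929. It was thus closer to high CO2 replicates 1 and 2 than to its own group. Pearson's r was 0.944 and 0.952 between high CO2 replicate 3 and the other high CO2 libraries, against 0.982 between those. Values without them are given beside the counts and medians that they move. All values are relative to the other transcripts of a library, so fewer copies per cell and more of other transcripts cannot be told apart.

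Transcripts of the members were present at moderate levels. FPKM, which scales counts by gene length and by the total of the library, allows levels of genes to be compared. The 40 detected members had mean FPKM over the 6 libraries between 10.6 (NO05G02930, an S9 model) and 359.6 (NO19G01570, S21), with a median of 78.2. The median was 29.8 over all genes tested and 268 over 78 cytosolic ribosomal protein genes. The members' summed counts made up 0.443% to 0.450% of a low CO2 library and 0.448% to 0.485% of a high CO2 library. The 3 most abundant members without a named compartment were S21, L28 (NO24G00200) and S1 (NO06G01110), a protein that in Escherichia coli holds mRNA on the small subunit. The small-subunit protein S21 had 387, 295 and 339 FPKM in low CO2, against 371, 341 and 424 FPKM in high CO2, and the groups overlapped. The 3 most abundant members described as mitochondrial were L24 (NO26G00320), L51 (NO08G03780) and the 54S protein L19 (NO29G01470). Counts per library ran from 12 to 31 for L27 (NO05G03880), the detected member with the fewest, and reached 2775 for L3 (NO05G04640) and for S1 (NO06G01110).

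**Figure D1:**
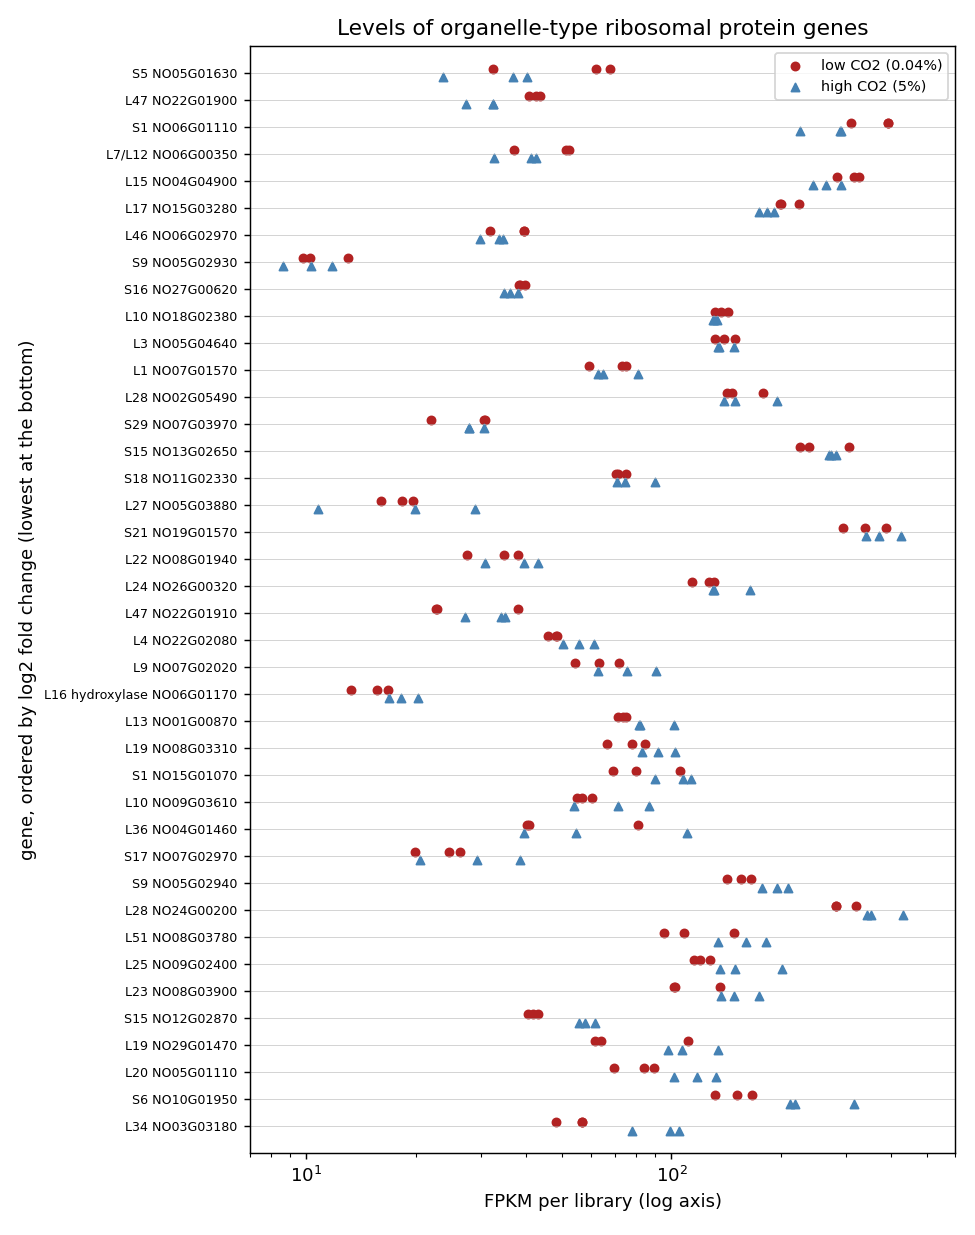
FPKM of the 40 detected members in each of the 3 low CO2 libraries (circles) and 3 high CO2 libraries (triangles), on a log axis, with genes ordered by log2 fold change. Low CO2 values of L34, S6 and L20 at the bottom all lie left of the high CO2 values, and those of S1 (NO06G01110) and one L47 gene near the top all lie right of them.

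The comparison between CO2 levels asked which of these transcripts differed after 24 h. In edgeR's test 1 fell in low CO2 and 0 rose, and DESeq2 also called 0 as higher. It was L34 (NO03G03180), a small basic protein of the bacterial-type large subunit. Its gene had 56.7, 48.2 and 56.9 FPKM in low CO2, against 105, 98.9 and 77.8 FPKM in high CO2. All 3 low CO2 cultures were thus below all 3 high CO2 cultures. L34 averaged 53.9 ± 4.98 FPKM in low CO2 and 93.8 ± 14.2 FPKM in high CO2 (SD, n = 3 each). Its log2 fold change, low minus high CO2, was -0.85 (SE 0.16, adjusted p = 0.0456 in edgeR's quasi-likelihood test with Benjamini-Hochberg adjustment over all genes tested), a level 1.81-fold higher in high CO2. Over all genes tested, 2.12% were called, 0.898% as lower and 1.22% as higher in low CO2. Of the other members, 39 did not pass and 1 was not tested. In simulated counts the test recovered 7.46% of 1.5-fold changes, so not passing does not show that a level was unchanged. The call of L34 lay close to the threshold. Its adjusted p ran from 6.95e-08 to 0.244 over 16 alternatives, with the same sign in all 16 and a call in 6. The smallest was from the fit without both libraries that stood apart, which were picked from these data. Without low CO2 replicate 1 the adjusted p was 0.00814, and leaving out any other single library ended the call (0.075 without high CO2 replicate 3, and up to 0.199 without the others).

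Next to L34 in the order of fold change was S6 (NO10G01950), which in bacteria binds the central domain of the small subunit's RNA together with S18. S6 had 166, 151 and 132 FPKM in low CO2, against 211, 218 and 316 FPKM in high CO2. The groups did not overlap, and high CO2 replicate 3 was the highest library. Its log2 fold change was -0.79 (SE 0.22, adjusted p = 0.131), while DESeq2, which called 6.38% of all genes tested (2.67% as lower), called it with an adjusted p of 0.0459. S18 (NO11G02330), its partner in bacteria, had a log2 fold change of -0.18 (SE 0.17).

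L20 (NO05G01110), an early-binding assembly protein of the large subunit in Escherichia coli, had 84.0, 89.3 and 69.7 FPKM in low CO2, against 118, 102 and 133 FPKM in high CO2. Its groups did not overlap either, and its log2 fold change was -0.59 (SE 0.19, adjusted p = 0.157). The small-subunit protein S15 of NO12G02870 varied little within groups, which did not overlap. It had 43.1, 41.7 and 40.4 FPKM in low CO2, against 57.9, 55.9 and 61.7 FPKM in high CO2. Its log2 fold change was -0.55 (SE 0.16, adjusted p = 0.139).

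A further pair of genes at this end of the order differed mainly in some cultures. L23 (NO08G03900), which in bacteria lies at the mouth of the exit tunnel, had 136, 101 and 102 FPKM in low CO2, against 148, 137 and 173 FPKM in high CO2. Low CO2 replicate 1 nearly reached high CO2 replicate 2, and the log2 fold change was -0.49 (SE 0.21, adjusted p = 0.271). The 54S protein L19 (NO29G01470) belongs by its KEGG name to the L11 family, at the base of the stalk that receives translation factors. It had 111, 61.6 and 64.1 FPKM in low CO2, against 107, 97.5 and 134 FPKM in high CO2. Low CO2 replicate 1 lay within the high CO2 range, and the log2 fold change was -0.55 (SE 0.33, adjusted p = 0.4).

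At the other end, S5 (NO05G01630), which in Escherichia coli lines the mRNA entry of the small subunit, had the highest log2 fold change, 0.61 (SE 0.27, adjusted p = 0.277). It had 32.4, 62.1 and 67.9 FPKM in low CO2, against 40.2, 36.9 and 23.6 FPKM in high CO2. Low CO2 replicate 1 lay within the high CO2 range and the other low CO2 cultures above it. S1 (NO06G01110), whose closest Swiss-Prot entry is cyanobacterial, had 311, 392 and 392 FPKM in low CO2, against 292, 290.1 and 225 FPKM in high CO2. These groups did not overlap, and the log2 fold change was 0.37 (SE 0.12, adjusted p = 0.17).

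The other genes at this end differed less. L7/L12 (NO06G00350), the flexible stalk protein that recruits translation factors, had 37, 52.4 and 51.5 FPKM in low CO2, against 41.2, 42.5 and 32.7 FPKM in high CO2 (log2 fold change 0.20, SE 0.15). The large-subunit protein L15 (NO04G04900) had 283, 327 and 317 FPKM in low CO2, against 291, 265 and 244 FPKM in high CO2 (0.15, SE 0.10). Both overlapped between groups. L17 (NO15G03280), the one member described as chloroplastic, had 199, 199 and 223 FPKM in low CO2, against 183, 191 and 174 FPKM in high CO2. The groups of L17 did not overlap, yet the log2 fold change was 0.13 (SE 0.13). Adjusted p-values in edgeR were 0.493 for L7/L12, 0.459 for L15 and 0.596 for L17.

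**Figure D2:**
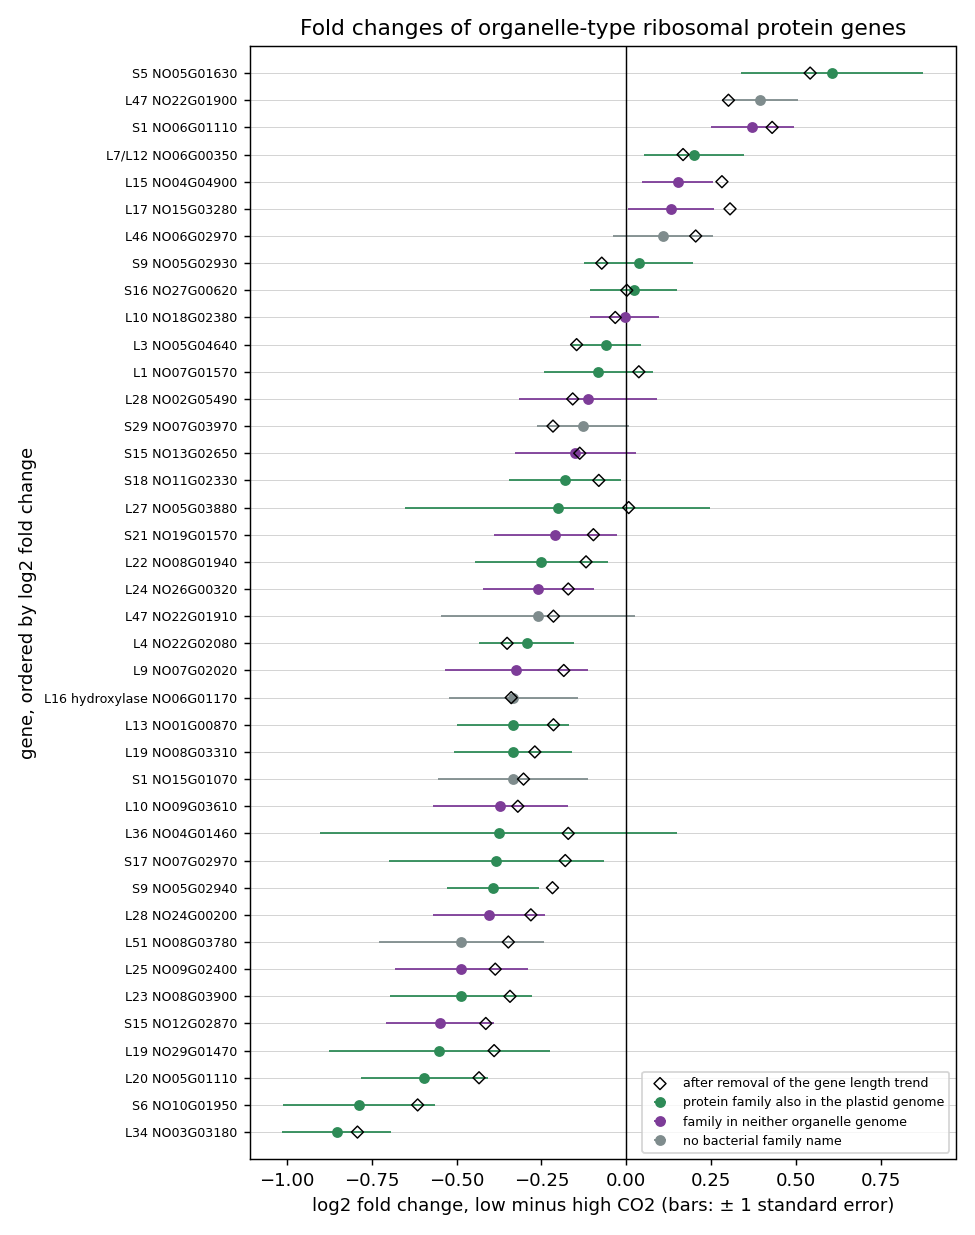
Log2 fold change, low minus high CO2, of the 40 tested members, with bars of ± 1 standard error, coloured by whether the plastid genome also encodes the protein family. Open diamonds give the value after a trend on gene length was removed. Most filled points lie left of 0, from L34 at -0.85 up to S5 at 0.61.

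Across the list the fold changes leaned to one side by small amounts. Of 40 members tested, 31 had a negative log2 fold change (77.5%, against 48.6% of all genes tested) and 9 a positive one. The median was -0.26, against 0.01 over all genes tested. Low CO2 FPKM lay wholly below high CO2 FPKM at 11 members (27.5%) and wholly above at 4 (10%), while over all genes tested these shares were 11.8% and 13.6%. The unadjusted p was below 0.05 at 7 members that were lower and 2 that were higher, against 9.18% and 9.42% of all genes tested. Large-subunit members had a median of -0.28, which was -0.39 without low CO2 replicate 1 and -0.17 without high CO2 replicate 3. Small-subunit members had one of -0.18, which was -0.33 and -0.10 without those libraries. The 9 members described as mitochondrial had one of -0.26, which was -0.40 and -0.12 without those libraries. All 3 medians stayed negative, with sizes that depended on single libraries. The 4 members whose gene ontology terms name the plastid had a median of 0.08, with 3 positive and 1 negative. The 16 tested members whose terms name the mitochondrion had one of -0.23, with 4 positive and 12 negative.

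Gene length and single libraries moved with this lean. The members had a median gene length of 1097 bases, against 1728 bases over all genes. With a smooth trend on gene length removed from each library, the members' median was -0.18, with 30 of 40 negative. L34 then had an adjusted p of 0.0542. Relative to each gene's mean over the 6 libraries, the members' median in log2 CPM was 0.05, -0.19 and -0.22 in low CO2 replicates 1, 2 and 3, and -0.02, 0.08 and 0.33 in high CO2 replicates 1, 2 and 3. The groups overlapped, since low CO2 replicate 1 lay above high CO2 replicate 1. The cytosolic ribosomal proteins stood at 0.12, -0.09 and -0.13 in the low CO2 libraries and at -0.16, -0.06 and 0.31 in the high CO2 libraries. Both lists were thus highest in high CO2 replicate 3. The part of these libraries in the lean beyond the values with and without them was not tested.

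**Figure D3:**
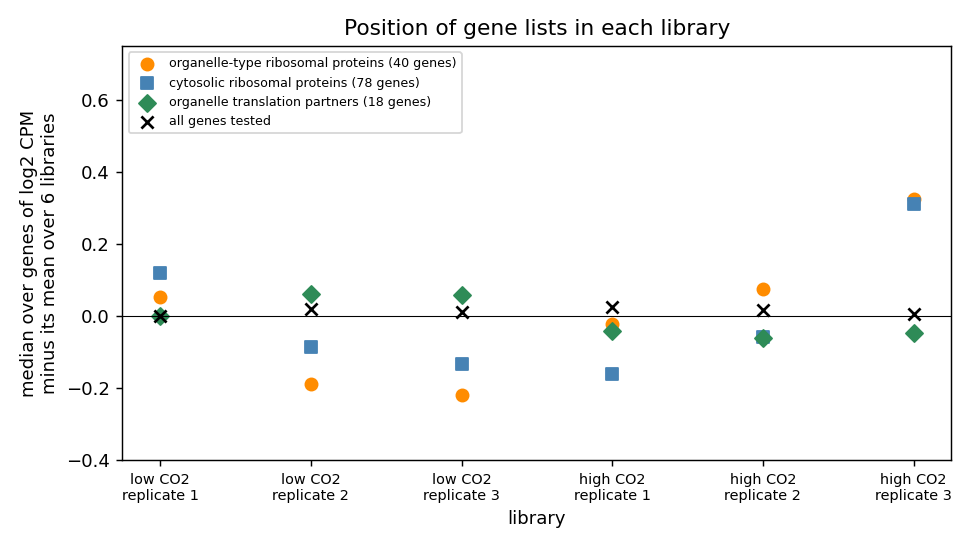
Median over the genes of each list of log2 CPM minus each gene's mean over the 6 libraries, with low CO2 libraries on the left and high CO2 libraries on the right. The members stand at -0.19 and -0.22 in low CO2 replicates 2 and 3 and at 0.33 in high CO2 replicate 3, where the cytosolic ribosomal proteins stand at 0.31.

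The number of calls and the median depended on which library was left out. Without both, the members' median was -0.23, and 18 members were called as lower in low CO2 (45%) and 3 as higher (7.5%), with 2 cultures per group. Over all 9300 genes then tested, 36.6% were called, 19.4% as lower and 17.2% as higher. The 3 members that were higher were S5, S1 (NO06G01110) and the longer L47 gene (NO22G01900), with adjusted p-values of 5.7e-06, 0.000334 and 0.0081 in edgeR. Both libraries had been left out because they stood apart from their groups in these same data. That narrows the spread within groups, so these adjusted p-values and calls overstate the evidence. The members that were lower included L34 (log2 fold change -1.05), S6 (-0.69), L51 (-0.63), L23 (-0.58) and L20 (-0.56). Without low CO2 replicate 1 alone, 10 members were lower and 2 higher, against 10.2% and 7.02% of 9334 genes, and the median was -0.38. Without high CO2 replicate 3 alone, L34 was no longer called and the members' median was -0.12, with 27 of 40 negative. That fit called 68 of all genes tested, and the fit with all libraries called 196.

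The gene content of the organelles gives a further way to order the members. In the RefSeq gene table of strain IMET1 (assembly ASM5162214v2), the plastid genome holds 43 ribosomal protein genes (25 of the large and 18 of the small subunit) and the mitochondrial genome 16 (5 and 11). None of these organelle genes matched an identifier of the deposited tables. Protein families were taken from the KEGG name, or from the description where there was none. By these, 34 members fell into 29 families, and 7 had no bacterial family name. No family was shared with the mitochondrial genome. A family also encoded in the plastid genome was found for 21 members (19 families), among them L34, S6, L20, L23, S5 and L7/L12. For 13 members neither organelle genome holds the family, among them S1, S15, S21, L10, L15, L17 and L28.

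Both groups spanned a wide range of responses. The 20 tested members with a plastid-encoded family had a median log2 fold change of -0.31 (-0.85 to 0.61), 16 of them negative, and a median level of 71.6 FPKM. The 13 members with a family in neither genome had a median of -0.21 (-0.55 to 0.37), 10 of them negative, and a median level of 158 FPKM. The order of these medians was not stable. They were -0.20 and -0.20 without both libraries that stood apart, -0.35 and -0.38 without low CO2 replicate 1, and -0.14 and -0.10 without high CO2 replicate 3. The 6 members that were chloroplastic by description or closest to a cyanobacterial entry (L17, S1, L10, S21, the S15 gene NO13G02650 and the L28 gene NO02G05490) had a median of -0.06 (-0.21 to 0.37), with a median level of 230.5 FPKM. The other 34 had one of -0.33. After removal of the length trend these medians were -0.06 and -0.21. Without low CO2 replicate 1 they were -0.17 and -0.40, and without high CO2 replicate 3 they were 0.05 and -0.18, and the smaller group's median was also 0.01 without low CO2 replicate 2 and with limma on FPKM, so its sign depended on the setting. This last grouping was chosen after values had been seen and the difference between the groups was not tested.

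Genes came in pairs for 3 families that neither organelle genome encodes. For L28, NO24G00200 has mitochondrial gene ontology terms, and NO02G05490 has plastid terms and a cyanobacterial closest entry. The first had 321, 283 and 282 FPKM in low CO2, against 344, 353 and 431 FPKM in high CO2. The second had 179, 142 and 146 FPKM in low CO2, against 139, 149 and 195 FPKM in high CO2. The groups of the first did not overlap and those of the second did, and log2 fold changes were -0.40 (SE 0.16, adjusted p = 0.248) and -0.11 (SE 0.20, adjusted p = 0.793). Their ratio within a library, which does not depend on library scaling, was 1.80, 1.99 and 1.93 in low CO2, against 2.47, 2.36 and 2.22 in high CO2, without overlap. Such a ratio still carries any trend on gene length, and these genes had mean lengths of 962 and 2344 bases. With the length trend removed their log2 fold changes were -0.28 and -0.16, closer together than with it.

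The S15 pair also differed in ratio between the groups, and the L15 pair overlapped. For S15, NO12G02870 is closest to a Halorhodospira entry and NO13G02650 to one of the cyanobacterium Synechococcus. Their ratio was 0.140, 0.185 and 0.169 in low CO2, against 0.214, 0.198 and 0.226 in high CO2, again without overlap. These genes had mean lengths of 901 and 1659 bases. Their log2 fold changes were -0.55 and -0.15, and -0.41 and -0.14 with the length trend removed. For L15, the pair is NO09G03610, a 54S protein described as mitochondrial L10 with the KEGG name of L15, and NO04G04900, which has chloroplast terms. That ratio was 0.194, 0.185 and 0.179 in low CO2, against 0.186, 0.268 and 0.355 in high CO2, and high CO2 replicate 1 lay within the low CO2 range. In the edgeR fit NO09G03610 had a log2 fold change of -0.37 (SE 0.20) and NO04G04900 one of 0.15 (SE 0.10). With the length trend removed these were -0.32 and 0.28. These 3 families were picked after values had been seen, and the ratios are given without a test. How often ratios of other gene pairs do not overlap was not counted.

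**Figure D4:**
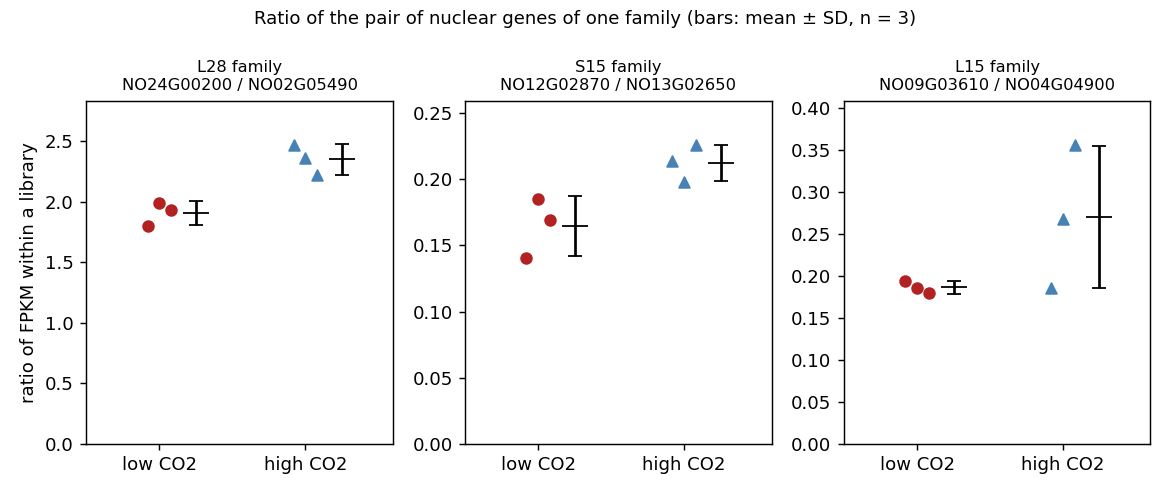
Ratio of the FPKM of both genes of the L28, S15 and L15 families within each library, with low CO2 on the left of each panel and high CO2 on the right, and the mean ± SD (n = 3). The low CO2 ratios lie below all high CO2 ratios for L28 and S15, and high CO2 replicate 1 of L15, at 0.186, lies within the low CO2 range.

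For 3 families the members are neighbours by locus number and share a description, so counting between them is uncertain. The shorter L3 gene (NO05G04650) was at 0 counts in all 6 libraries and was not tested. Its neighbour NO05G04640 had a log2 fold change of -0.06 (SE 0.10). Of the S9 genes, the shorter NO05G02940 (636 bases) had a log2 fold change of -0.39 (adjusted p = 0.186, SE 0.14) and the longer NO05G02930 (5046 bases) one of 0.04 (SE 0.16). Their summed level was 113 ± 10.3 CPM in low CO2 and 125 ± 7.07 in high CO2 (SD, n = 3 each). This sum used library totals without the TMM adjustment. The FPKM ratio of the shorter to the longer gene was 14.5, 16.1 and 11.9 in low CO2. In high CO2 it was 17.3, 16.5 and 24.2, without overlap.

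The L47 genes had fold changes of opposite sign. L47 belongs to the mitochondrial large subunit, at the exit tunnel in mammals. The longer gene, NO22G01900, had 40.7, 42.6 and 43.6 FPKM in low CO2, against 32.4, 32.5 and 27.4 FPKM in high CO2, without overlap, and a log2 fold change of 0.39 (adjusted p = 0.132, SE 0.11). Its NR description in the deposited tables names a cytochrome P450, while its Swiss-Prot description and KEGG name are those of L47. The shorter gene, NO22G01910, had 38.0, 22.7 and 22.7 FPKM in low CO2, against 27.1, 35.0 and 34.2 FPKM in high CO2, with a log2 fold change of -0.26 (SE 0.29). Summed, the L47 genes had 184 ± 6.03 CPM in low CO2 and 148 ± 9.44 in high CO2, also without the TMM adjustment. Their FPKM ratio overlapped between the groups.

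The most abundant members described as mitochondrial did not pass either. L51 (NO08G03780), a protein of the mitochondrial large subunit, is named after a fission yeast entry and has the KEGG name MRPL43. It had 148, 108 and 95.4 FPKM in low CO2, against 134, 160 and 181 FPKM in high CO2. Low CO2 replicate 1 lay within the high CO2 range, and the log2 fold change was -0.49 (SE 0.24, adjusted p = 0.326). L24 (NO26G00320) had 127, 131 and 114 FPKM in low CO2, against 130.1, 131 and 165 FPKM in high CO2, with a log2 fold change of -0.26 (adjusted p = 0.425, SE 0.16). S29 (NO07G03970), a GTP-binding protein of the mitochondrial small subunit, had one of -0.13 (SE 0.14, adjusted p = 0.634).

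Genes that work with organelle ribosomes were taken from a list of 19 translation factors, aminoacyl-tRNA synthetases and modifying enzymes. Of 18 tested, none passed edgeR's test at an adjusted p below 0.05, 4 were higher and 1 lower at an unadjusted p below 0.05 (against 9.42% and 9.18% of all genes tested), and DESeq2 called 1. The median log2 fold change was 0.09, with 12 positive and 6 negative. The lowest was a ribosome-recycling factor (NO11G01210), which in bacteria splits the ribosome after termination. It had 161, 155 and 155 FPKM in low CO2, against 219, 222 and 251 FPKM in high CO2, without overlap. Its log2 fold change was -0.62 (SE 0.14, adjusted p = 0.0681 in edgeR and 0.0103 in DESeq2). Another recycling factor, NO10G03210, had a log2 fold change of -0.27 (adjusted p = 0.41, SE 0.16).

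The highest partners were an initiation factor IF-2 and a tRNA ligase. The IF-2 gene NO10G03160, whose product brings the initiator tRNA, had 6.79, 11.8 and 11.9 FPKM in low CO2, against 8.79, 6.18 and 3.99 FPKM in high CO2 (log2 fold change 0.61, SE 0.30, adjusted p = 0.315). The mitochondrial glycine tRNA ligase (NO22G01550) had 36.3, 57.2 and 61.7 FPKM in low CO2, against 38.7, 37.5 and 30.9 FPKM in high CO2 (0.46, SE 0.17, adjusted p = 0.226). In both, low CO2 replicate 1 lay within the high CO2 range. Without both libraries that stood apart, 5 partners were called as higher (27.8%) and 2 as lower (11.1%), against 17.2% and 19.4% of all genes then tested.

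The cytosolic ribosomal proteins were set beside the members. Of 78 genes, 1 fell in low CO2, the 60S protein L13 (NO20G00720; adjusted p = 0.0446 in edgeR), and 77 did not pass. The organelle-type members had a median log2 fold change of -0.26, with 31 negative and 9 positive, against -0.01 with 40 negative and 38 positive in the cytosolic list. The medians were -0.18 for the members and 0.06 for the cytosolic list with the length trend removed, and -0.12 and 0.10 without high CO2 replicate 3. They were -0.38 and -0.16 without low CO2 replicate 1, with 54 of 78 cytosolic genes negative, and -0.34 and -0.14 without high CO2 replicate 1, with 55 of 78 negative. The sign of the cytosolic median thus depended on the libraries used. Without both libraries that stood apart, 10 cytosolic genes were called as higher (12.8%) and 6 as lower (7.69%), both below the 17.2% and 19.4% of all genes then tested. The difference between the lists was not tested. The authors' deposited table of 217 genes with their own comparison held 0 members, 0 of the partners and 0 of the cytosolic ribosomal proteins.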

How the data were processed

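Per the file headers, each library's deposited table gives an expected count, a TPM value, an FPKM value and a length per gene. The tools named, per the submitters' processing notes, were edgeR, featureCounts, Picard, STAR, StringTie and Trim Galore, without versions or order; build and annotation are not given in the sources used here. These deposited expected counts are not normalized, and 17.5% to 19.8% of a library's values were not whole (tolerance 0.004). The authors' TPM values were not used further, and their FPKM values describe levels. The authors' deposited table of 217 genes holds log2 fold changes and p-values of their own comparison and was used for membership only.

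Counts were rounded, filtered with filterByExpr (9244 of 10633 genes), scaled by TMM and compared with edgeR 4.0.16's robust quasi-likelihood test in R 4.3.3, low minus high CO2, without a block. The standard error is the size of the log2 fold change over the square root of F. Genes were called at a Benjamini-Hochberg adjusted p below 0.05 over all genes tested. The test, with a biological coefficient of variation of 23.1%, was checked on simulated counts. Alternatives were a replicate block, other filters and scaling, DESeq2 1.42.0, limma 3.58.1 on log2(FPKM + 1) and log2(FPKM + 0.1), removal of a lowess trend on log gene length, and leaving out libraries. Named genes are called members, the 6 highest and 6 lowest fold changes with a mean of at least 5 FPKM, the 3 most abundant per class, untested members, and called or extreme partners (2 each way); others named (NO13G02650, NO02G05490, NO09G03610, NO11G02330, NO07G03970, NO05G03880 and the neighbours by locus number) were chosen after values were seen. Members, lists and alternatives were chosen with earlier results of these data known. Precision is limited by counts per detected member and library of 12 to 2775 and by 3 cultures per group. No sequences of these genes were used.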

Additional observations from a re-analysis of the deposited data

How the results depend on the processing

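The members' median log2 fold change was negative under all 16 alternatives, between -0.38 and -0.12 with 1 library left out and between -0.27 and -0.17 otherwise. Calls depended on the setting. Of the members, 1 was called with all libraries, 0 with the replicate block, with limma on log2(FPKM + 1) or log2(FPKM + 0.1), with the length trend removed, and with that and the block, 2 by DESeq2, 0 to 12 with 1 library left out, and 21 without high CO2 replicate 3 and low CO2 replicate 1 together. Over all genes, 196 were called, 21 with the block, 19 with the block and the length trend removed, 590 by DESeq2, 18 to 1610 with 1 library left out and 3402 without both. Of the partners, 0 were called, 1 by DESeq2, 0 to 3 with 1 library left out and 7 without both. Of the cytosolic proteins, 1 was called, 0 with RLE scaling, the block, either limma fit or the length trend removed (with or without the block), 0 to 2 with 1 library left out and 16 without both. The causes were not tested. Between libraries of the same replicate number, deviations from the group means correlated at -0.36, 0.08 and -0.43 for numbers 1, 2 and 3. No library correlated best with the one of its own number. Deviations from a mean of 3 libraries depend on those that stood apart (0.37 between low CO2 replicate 1 and high CO2 replicate 3). These values therefore cannot show whether cultures were paired. For L34 the block gave an adjusted p of 0.244. Among the 20 tested genes that the naming rule took, no fold change changed sign under any alternative. Of the members named outside it, the S9 gene NO05G02930 had log2 fold changes of 0.04 with all libraries, -0.07 with the length trend removed and -0.03 without both libraries, and L27 had -0.20, 0.01 and 0.09. Of the 320 values of the 20 tested genes that the naming rule took, 283 stayed on the same side of the threshold. Of the rest, 27 newly passed it and 10, all of L34, no longer did. Few counts limit L27, with 12 to 31 per library.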
